A study of Caenorhabditis elegans with 36 samples.

Results

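The 7 lysozyme genes described here are lys-1, lys-2, lys-4, lys-5, lys-6, lys-7 and lys-8 of Caenorhabditis elegans. They were found by gene symbol in the array's annotation and were picked from results in which the contrast of immunoprecipitate and input was already known. That contrast is therefore given for them as a description with no test, while the levels in total RNA and the change of the ratio between stages were tested. The 7 genes lie on 9 of 23232 spots, with 2 spots each for lys-4 and lys-5, and are 7 of 16378 genes with a symbol. All 7 passed the filter on missing values, beside 12061 named genes and 3671 unnamed probes tested in all.

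Lysozymes cleave the peptidoglycan of bacterial cell walls. The lys genes of C. elegans encode lysozymes of the type found in protists, and a separate group, the ilys genes, encodes invertebrate-type lysozymes. The worm feeds on bacteria, and several lys genes are known to be expressed in the intestine, where their products serve digestion and defence against swallowed microbes. Known regulators of such genes include the DBL-1 ligand of the TGF-beta family, insulin signalling through DAF-16 and the p38 MAP kinase pathway.

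The animals carried a single-copy integrated AIN-2::GFP transgene. AIN-2, a worm relative of GW182, belongs to miRISC, in which an Argonaute loaded with a microRNA binds target mRNAs. RNA bound to AIN-2::GFP was recovered with a monoclonal anti-GFP antibody (IP) and set beside total RNA of the same lysate (input), each in 1 dye of a 2-colour array. All animals, at every stage, carried the transgene and ate HB101 bacteria at 20 °C; neither the promoter that drives it nor the number of clones behind the strain is in the labels. The groups were eggs frozen after purification (4 lysates), L1 larvae after 4 hours on food (4 lysates), L2 after 21 hours (3), L3 after 30 hours (4) and L4 after 42 hours (3). The 18 lysates came from separately grown cultures and gave 36 samples, an IP and an input each, without an IP from animals lacking the transgene among the samples analysed. Lysates came from whole animals, so the tissue of origin was not measured.

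Values are log2 intensities after quantile normalization, and an IP minus input of 1 is a doubling in the IP relative to the sample's other RNAs. Between 31% and 70.4% of spots per IP, and between 51.3% and 71.4% per input, exceeded 3 times the noise, which was taken from the values below 0 and is called background here. The IP was in Cy3 in 12 lysates and in Cy5 in 6. Precision is limited by how many arrays a stage has. Of 12 intestine markers listed, 10 were tested and 7 of them rose in total RNA between Egg and L1, where 11.1% of all genes and probes did. The markers ges-1 (0.32), elt-2 (-0.72) and elt-7 (-1.44, all log2) were not called. No sequence of a probe was used, so cross-hybridization between related lysozyme genes was not tested.

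In total RNA, 4 lysozyme genes were lower in eggs than in L1: lys-1, lys-2, lys-7 and lys-8. After L1 no further change of these 4 genes was called between consecutive stages. The adjacent genes lys-4 and lys-5 were close to background in eggs and in L1 and rose between L1 and L2, by a call that many of the alternatives ended. For lys-6, input exceeded background in 4 of 18 lysates and no change was called. In RNA of whole animals, more cells of a type and more RNA per cell cannot be told apart.

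**Figure D1:**
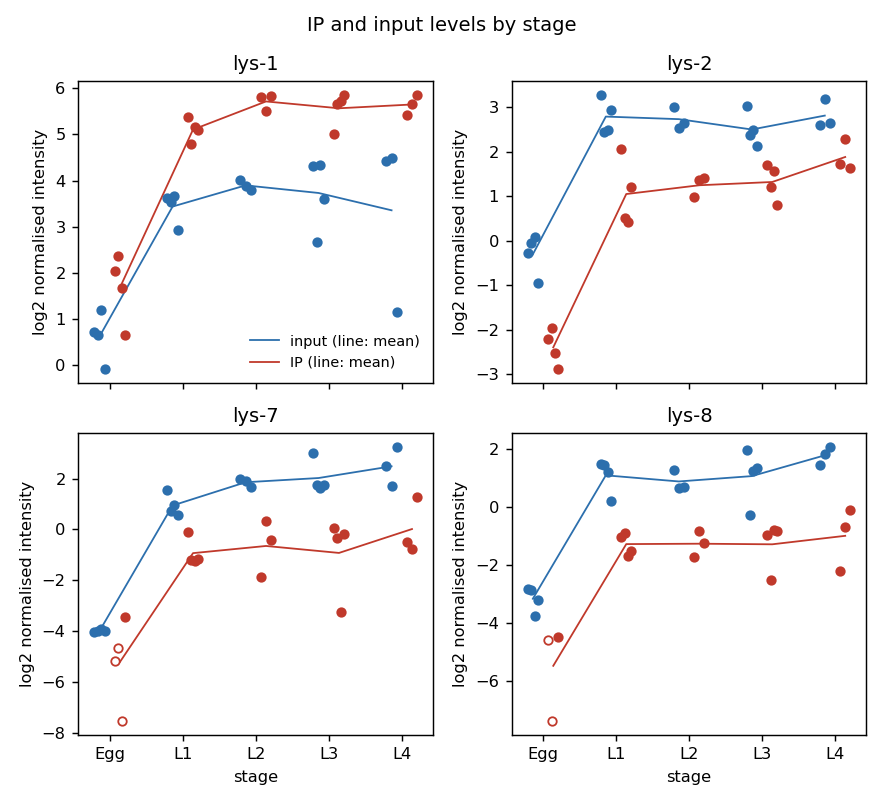
IP (red) and input (blue) levels of lys-1, lys-2, lys-7 and lys-8 by stage, as log2 normalised intensity; each point is 1 lysate, open points did not exceed background, and lines join stage means. Input of all 4 genes is higher in larvae than in eggs, except for lys-1 in L4 replicate 10, which lies within the egg range. The IP lies above the input for lys-1 and below it for nearly all lysates of the other genes.

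lys-1 encodes a lysozyme known for its induction by Serratia infection. Its input level on the log2 scale was 0.72, 0.65, 1.20 and -0.09 in the 4 egg lysates. In the 4 L1 lysates it was 3.63, 3.53, 3.66 and 2.93, in the 3 L2 lysates 4.01, 3.88 and 3.80, and in the 4 L3 lysates 4.32, 2.66, 4.34 and 3.61. Every L1, L2 and L3 lysate was above every egg lysate. In L4 the input level was 4.42, 4.50 and 1.15, and the low value, of replicate 10, fell within the range of the eggs. Its deposited intensity there was 2.65, against 22.7 and 22.4 in the other L4 inputs. From Egg to L1 the level rose by 3.05 ± 0.486 (SE, log2, n = 4 and 4), an 8.28-fold rise (limma, adjusted p = 0.000189).

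lys-2, the neighbour of lys-1 in the gene order of the WBcel235 annotation, had input levels of -0.29, -0.06, 0.07 and -0.95 in eggs. They were 3.28, 2.44, 2.49 and 2.95 in L1 and between 2.12 and 3.20 in the 10 lysates of later stages, so larvae and eggs did not overlap. The rise from Egg to L1 was 3.07 ± 0.293 (log2), 8.39-fold (limma, adjusted p = 7.81e-07). In size it was close to that of lys-1, and the rises of the 2 genes were not tested against each other.

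lys-7, a lysozyme gene known as a target of the insulin-regulated factor DAF-16, rose most by the fitted value. Its 4 egg inputs were tightly grouped at -4.048, -3.996, -3.921 and -4.007. In L1 they stood at 1.56, 0.71, 0.96 and 0.56, a rise of 4.89 ± 0.358 (log2), 29.6-fold (limma, adjusted p = 3.28e-08). The 3 L2 values of 2.01, 1.91 and 1.67 were all above the 4 L1 values, but the difference of 0.95 ± 0.382 did not pass the test (limma, adjusted p = 0.309). In L3 the level was 1.62 to 3.00 and in L4 1.73 to 3.26.

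lys-8, known to be regulated by DBL-1 signalling, had egg inputs of -2.82, -2.87, -3.75 and -3.21. In L1 the values were 1.50, 1.47, 1.23 and 0.22, a rise of 4.36 ± 0.411 (log2), 20.5-fold (limma, adjusted p = 6.78e-07). L2 lay between 0.67 and 1.30, L3 between -0.27 and 1.99 and L4 between 1.45 and 2.09. All larval lysates were above all egg lysates, and the larval stages overlapped each other in neighbouring order of their means.

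The call of a rise from Egg to L1 thus fell on 4 of 7 lysozyme genes, where 11.1% of all genes and probes tested were called higher. All 4 calls held in every alternative that tested the gene, including ones that left a single lysate in eggs or in L1 and so say little. The list's median difference was 3.05 against 0.006 over all genes and probes. For lys-4, lys-5 and lys-6 the difference from Egg to L1 was 0.09 ± 0.849, 0.40 ± 0.515 and 0.55 ± 0.847, and none of them was called.

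**Figure D2:**
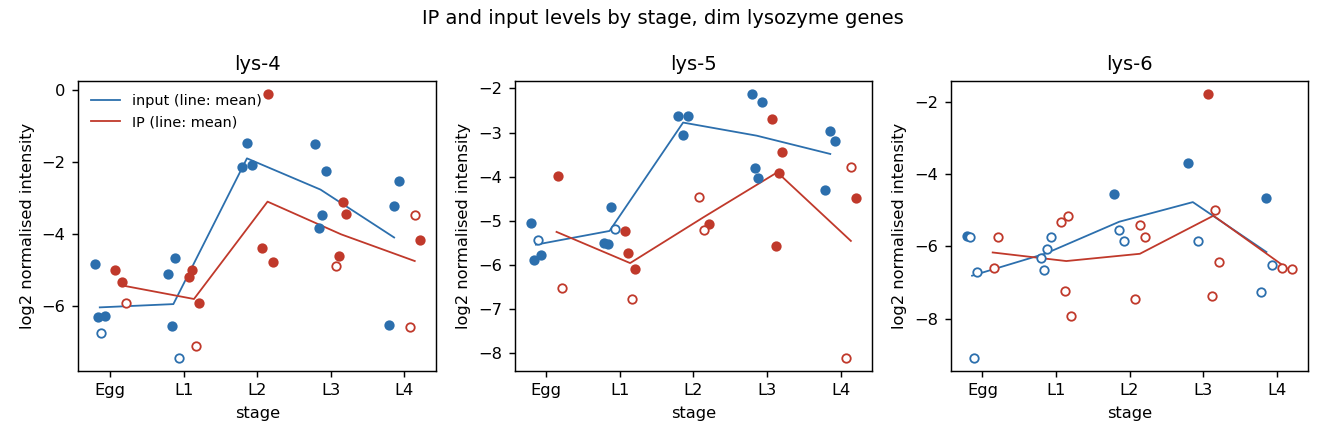
IP (red) and input (blue) levels of lys-4, lys-5 and lys-6 by stage, as log2 normalised intensity; each point is 1 lysate, filled where at least 1 probe exceeded background, and lines join stage means. Input of lys-4 and lys-5 is higher in all 3 L2 lysates than in all egg and L1 lysates, and most points of lys-6 are open.

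lys-4, lys-5 and lys-6 follow each other in the WBcel235 gene order. The input level of lys-4 lay between -6.75 and -4.82 in eggs and between -7.42 and -4.67 in L1. It lay between -2.14 and -1.49 in the 3 L2 lysates, with no overlap with either earlier stage. In L3 it lay between -3.84 and -1.51, and in L4 between -6.53 and -2.53, where 1 lysate was as low as the eggs. From L1 to L2 the level rose by 4.03 ± 0.908 (log2), 16.4-fold (limma, adjusted p = 0.0244). In L1 at least 1 of its probes exceeded background in 3 of 4 inputs, so the size of the fold rests on values near the floor, and with an offset of 0.1 added before the log the difference was 1.66. One probe of lys-4 gave 4.51 ± 0.84 (limma, adjusted p = 0.00598) and exceeded background in 16 of 18 inputs. The other gave 3.56 ± 1.24 (limma, adjusted p = 0.212) and exceeded background in 10.

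In a single lysate, L2 replicate 2, the first of these lys-4 probes read 20.79 in the IP and 2.13 in the input as deposited, while no other lysate exceeded 0.286 in the IP or 0.689 in the input on that probe. Without that lysate, the L2 minus L1 difference of lys-4 was 3.76 and was no longer called (limma, adjusted p = 0.147). Leaving out L1 replicate 5, L1 replicate 11, L2 replicate 1 or L2 replicate 3 ended the call as well.

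lys-5 had input levels between -5.90 and -5.04 in eggs, between -5.54 and -4.69 in L1 and between -3.06 and -2.63 in L2. In L3 it stood between -4.02 and -2.13 and in L4 between -4.30 and -2.97, so L2, L3 and L4 all lay above eggs and L1. The rise from L1 to L2 was 2.40 ± 0.55 (log2), 5.28-fold (limma, adjusted p = 0.0269), and here too the L1 level exceeded background on at least 1 probe in only 3 of 4 inputs. One probe gave 2.73 ± 0.53 (limma, adjusted p = 0.0084) and the other 2.08 ± 0.733 (limma, adjusted p = 0.217). The call ended without L1 replicate 2, 5 or 10 and without any 1 of the 3 L2 lysates. With the same offset of 0.1 the difference of lys-5 was 0.87 and was not called.

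Both L1 to L2 calls together make 2 of 7 lysozyme genes, where 1.81% of all genes and probes were called higher. Of the 29 settings that tested lys-4, 18 kept its call, and of the 26 that tested lys-5, 15 did; the difference was above 0 in all of them. Between L2 and L3 limma called 0 of the 7 genes, and 0% of all genes and probes (797 had an unadjusted p under 0.05, none of them a lysozyme gene of this set). From L3 to L4 it likewise called 0 of the 7, of which 0 had an unadjusted p under 0.05, where 0.877% of all were called in either direction. Over all 5 stages, the F test called 6 of 7 genes, all but lys-6 (limma, adjusted p = 0.352), where 25% of all genes and probes were called. The adjusted p of the other 6 ran from 2.44e-09 for lys-7 to 0.00395 for lys-4.

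In the IP the members parted. lys-1 was higher in the IP than in the input in 18 of 18 lysates, while lys-2 was lower in 18 of 18, lys-7 in 17 of 18 and lys-8 in 17 of 17. lys-5 was lower in 13 of 16 lysates. lys-4, with 6 lysates above and 11 below 0, and lys-6, with 8 above and 5 below, had no common side. Of all genes and probes, 19.1% were called higher and 25.1% lower in the IP by their mean over stages. Since the genes were chosen on this contrast, these values are a description only.

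**Figure D3:**
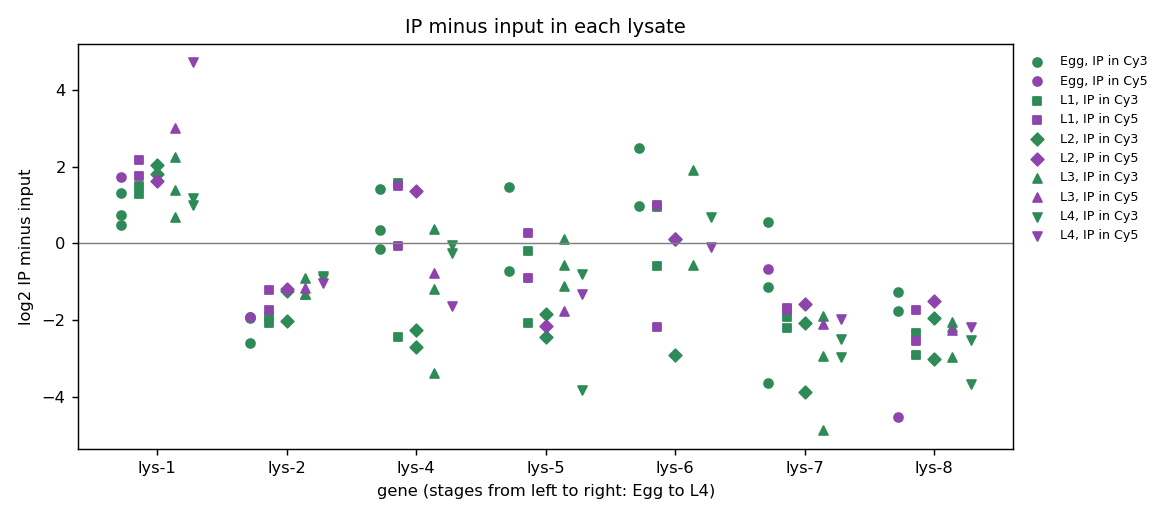
log2 IP minus input of the 7 lysozyme genes; each point is 1 lysate, its shape gives the stage (from left to right, Egg to L4) and its colour the dye of the IP. All 18 lysates of lys-1 are above 0, all 18 of lys-2 and all 17 of lys-8 below 0, and the points of lys-4, lys-5 and lys-6 spread to both sides.

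IP minus input of lys-1 was 1.31, 1.72, 0.48 and 0.75 in the 4 egg lysates and 1.75, 1.27, 1.50 and 2.16 in L1. It was 1.81, 1.62 and 2.03 in L2, and 0.69, 3.01, 1.39 and 2.25 in L3. In L4 it was 1.01, 1.18 and 4.71. The stages overlapped, and the highest single value, of L4 replicate 10, came from the lysate with the low input named above. The fitted mean over stages was 1.94 ± 0.171 (SE), or 3.83-fold. Without that lysate the mean was 1.66, and the L4 value changed from 2.50 ± 0.396 to 1.44.

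The size of this enrichment moved with the dye. With the IP in Cy3, lys-1 had a mean of 1.31 (SD 0.54, n = 12), and with the IP in Cy5 a mean of 2.50 (SD 1.2, n = 6). The Cy5 lysates include L4 replicate 10, whose value of 4.71 raised that mean. The dye term of the fit, with that lysate included, was 1.20 ± 0.346 for lys-1. The median size of that term over all genes and probes was 0.473. All lysates of either dye were above 0, which follows from the 18 of 18 given above and is no separate check. In 3 lysates, L1 replicate 2, L2 replicate 3 and L3 replicate 2, the lys-1 IP spot lay within 5% of its column's maximum together with at least 9 other spots, so its value there may be a lower bound. Without those 3 lysates the fitted mean was 1.93 ± 0.21, against 1.94 with them.

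lys-2 had IP minus input values of -1.92, -1.91, -2.60 and -1.93 in eggs and -1.22, -1.93, -2.08 and -1.74 in L1. They were -2.02, -1.18 and -1.25 in L2, -1.32, -1.17, -0.90 and -1.32 in L3 and -0.86, -0.91 and -1.02 in L4. The egg and L4 lysates did not overlap, the L4 values being closer to 0. Its mean over stages was -1.45 ± 0.0972, which is 2.72-fold more in the input, and its dye term was 0.24 ± 0.196. The stage means ran from -2.03 ± 0.198 in eggs through -1.74, -1.45 and -1.12 to -0.89 ± 0.224 in L4, but the F test between stages did not call this change (limma, adjusted p = 0.113).

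lys-7 had values of -1.14, -0.67, -3.63 and 0.56 in eggs, where its IP exceeded background in 1 of 4 lysates. In L1 they were -1.67, -1.91, -2.20 and -1.73, in L2 -3.87, -1.57 and -2.08, in L3 -2.94, -2.10, -4.87 and -1.90, and in L4 -2.97, -2.49 and -1.96. All 14 larval lysates were below 0, and the only value above 0 was 1 egg lysate. The mean over stages was -2.07 ± 0.247, or 4.19-fold more in the input.

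lys-8 gave a value in 3 egg lysates, -1.76, -4.52 and -1.26, since its IP was at or under 0 in the remaining one. L1 had -2.54, -2.34, -2.90 and -1.73, L2 had -3.01, -1.50 and -1.94, L3 had -2.96, -2.26, -2.04 and -2.17, and L4 had -3.66, -2.52 and -2.17. The stages overlapped throughout. With a mean of -2.44 ± 0.217, 5.43-fold more in the input, lys-8 had the lowest fitted value of the 7 genes, although with the IP in Cy3 only lys-7 was lower (-2.48 against -2.42 for lys-8). Its egg IP exceeded background in 1 of 4 lysates. Without Egg replicate 2 its egg value moved from -2.52 to -1.21 and its mean to -2.11.

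The dim genes are less well measured. For lys-5 the mean was -1.03 ± 0.345 over 16 lysates, from -3.81 to 1.46. For lys-4 it was -0.26 ± 0.396 over 17 lysates, from -3.37 to 1.57, and it changed side to 0.11 without L4 replicate 10 and stood at -0.67 without L2 replicate 2. For lys-6 it was 0.30 ± 0.497 over 13 lysates, with the IP above background in 1 of 18 lysates.

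Within a lysate, the gap between lys-1 and the lysozyme genes on the other side of 0 was wide. IP minus input of lys-1 exceeded that of lys-2 in 18 of 18 lysates, by 3.22 on average (SD 0.922, from 1.87 to 5.73). It exceeded that of lys-7 by 3.88 (SD 1.49, 18 of 18 lysates) and that of lys-8 by 4.20 (SD 1.18, 17 of 17). The counts for lys-2 and lys-8 follow from the sides given above, and that for lys-7 does so in all but 1 lysate. These counts are no separate check. lys-2, lys-7 and lys-8 were closer to each other: lys-2 was above lys-7 in 13 of 18 lysates and above lys-8 in 14 of 17, and lys-7 was above lys-8 in 13 of 17. The neighbours lys-1 and lys-2 thus had IP values on opposite sides of 0 and similar rises in total RNA.

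In the IP itself lys-1 had a mean level of 1.68 (SD 0.741, n = 4) in eggs and 5.11 (SD 0.24, n = 4) in L1, with no overlap. For lys-2 the same means were -2.40 (SD 0.397) and 1.05 (SD 0.761), for lys-7 -5.21 (SD 1.72) and -0.93 (SD 0.544). lys-8 stood at -5.48 (SD 1.66, n = 3) in eggs and -1.27 (SD 0.381, n = 4) in L1. By these means the IP levels were higher in L1 than in eggs, as in the inputs, and were not tested separately. How many of all genes and probes part eggs from L1 without overlap was not counted.

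Whether the ratio of IP to input changed with the stage was tested over all 18 lysates. By the F test limma called 0 of the 7 lysozyme genes, with 1 at an unadjusted p under 0.05, where 2.7% of all genes and probes were called. The adjusted p values ran from 0.113 for lys-2 to 0.952 for lys-8. From Egg to L1 it also called 0 of 7, with 0 at an unadjusted p under 0.05, where 2.38% of all were called. That difference was 0.31 ± 0.487 for lys-1, 0.29 ± 0.276 for lys-2, -0.87 ± 0.702 for lys-7 and 0.14 ± 0.642 for lys-8. The standard errors leave room for changes of the order of the values themselves, so an equal ratio at all stages was not shown. With an offset of 0.1 before the log, the ratios of lys-7 and lys-8 were called lower in L1 than in eggs, with differences of -1.65 (limma, adjusted p = 0.0213) and -1.48 (limma, adjusted p = 0.00875). The egg IP of each gene exceeded background in 1 of 4 lysates. As deposited it was at most 0.12, about the size of the offset, so these 2 differences were not measured well.

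Of 9 other lysozyme genes listed, 7 were tested. The list was drawn up with earlier results of these data known, so its IP minus input values are a description only. In the IP 1 was called higher, where 19.1% of all genes and probes were, and 3 lower, where 25.1% were. The higher one was lys-3, which follows lys-2 in the gene order, at 1.56 ± 0.326 (above 0 in 15 of 18 lysates). Its input exceeded background in only 8 of 18 lysates. The 3 lower were ilys-5 at -1.75 ± 0.172, lys-10 at -1.50 ± 0.408 and ilys-6 at -0.75 ± 0.223. The IP of lys-10 exceeded background in only 2 of 18 lysates. In total RNA, ilys-5 rose from Egg to L1 by 5.67 ± 0.509 (limma, adjusted p = 4.14e-07) and ilys-6 by 2.37 ± 0.522 (limma, adjusted p = 0.00296). ilys-5 is also the only one of the 14 lysozyme genes tested whose ratio of IP to input was called as changing, by -2.75 ± 0.51 from Egg to L1 (limma, adjusted p = 0.00528). Its egg values were near the floor, with the IP above background in 1 and the input in 2 of 4 egg lysates, so the size of that change was not measured well.

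Other gene lists of gut and immunity put these values in context; they were drawn up with earlier results of these data known. Of 25 intestinal digestive and structural genes tested, 17 rose in total RNA from Egg to L1 and 0 fell, and in the IP 1 was called higher and 14 lower. Over all genes and probes, 11.1% rose and 11.5% fell from Egg to L1, and in the IP the shares were the 19.1% and 25.1% given above, which also stand behind the counts of the lists that follow. The highest were lipl-1, a lysosomal lipase (1.17 ± 0.323), and the metallothionein gene mtl-1 (0.32 ± 0.272, not called). The lowest were the aspartic protease genes asp-6 (-2.56 ± 0.162) and asp-5 (-2.46 ± 0.142). The list's median IP minus input was -0.91, against -1.03 for the 7 lysozyme genes and -0.09 for all genes and probes.

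The saposin-like spp genes encode small membrane-active antimicrobial proteins. Of 13 tested, 9 rose and 1 fell from Egg to L1, while by IP minus input, whose median was -1.23, 9 were lower and 0 higher. They ran from 0.67 ± 0.467 for spp-19 (not called) and -0.11 ± 0.222 for spp-4 (not called) to -1.61 ± 0.132 for spp-3 and -1.86 ± 0.176 for spp-5. The IP minus input of lys-1, 1.94, was above that of every gene tested in these 2 lists.

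**Figure D4:**
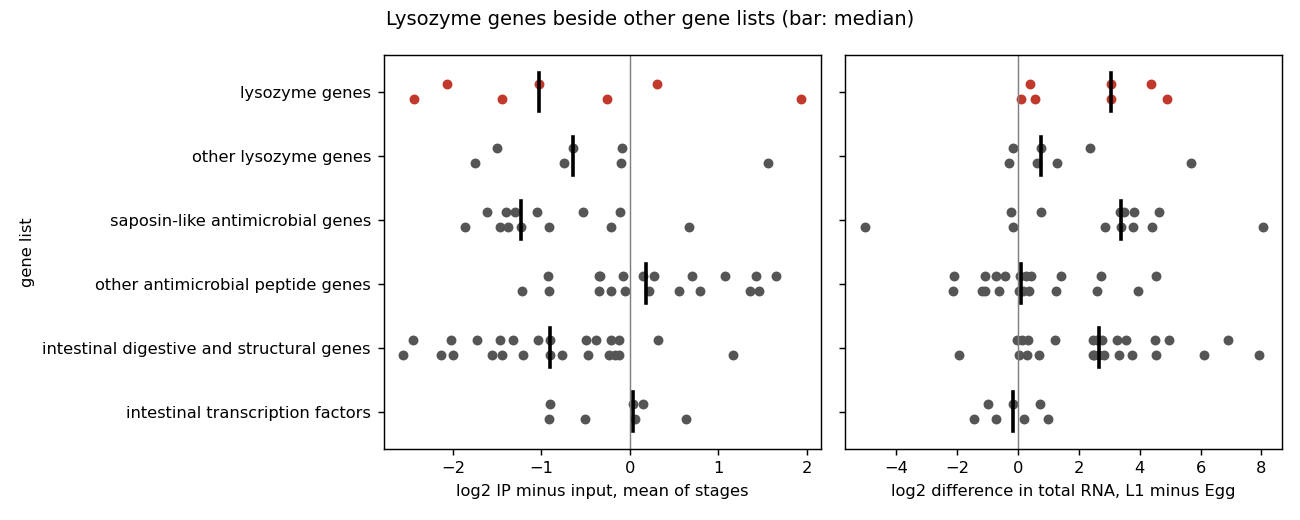
Fitted log2 IP minus input as the mean of stages (left) and log2 difference in total RNA between L1 and Egg (right) for genes of 6 lists; each point is 1 gene and the bar is the list's median. lys-1 is the rightmost point of all lists in the left panel at 1.94, and the medians of the lysozyme, saposin-like and intestinal digestive lists in the right panel lie between 2.65 and 3.39.

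Other antimicrobial peptide genes, which include caenacins (cnc), nlp peptides and antibacterial factors (abf), made up a further list. Of 20 tested, 7 were higher and 3 lower in the IP (median 0.18), and 4 rose and 2 fell in total RNA from Egg to L1. cnc-4 (1.65 ± 0.2) and abf-6 (1.47 ± 0.254) were the highest, and abf-5 (-1.22 ± 0.294) and abf-2 (-0.93 ± 0.441, not called) the lowest. For the intestinal transcription factors the median was 0.03. Of 7, 0 were called higher and 2 lower, with med-1 (0.63 ± 0.273) and end-1 (0.15 ± 0.171), neither called, as the highest and elt-7 (-0.90 ± 0.206) and end-3 (-0.91 ± 0.156) as the lowest.

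Among known regulators of lysozyme genes, 6 of 9 genes of the DBL-1 pathway were tested, of which 2 were higher and 1 lower in the IP. The ligand gene dbl-1, named as the highest of its list by this same contrast, was higher in 18 of 18 lysates (1.56 ± 0.11). It was followed by lon-2 (0.76 ± 0.156), a negative regulator. The receptor gene sma-6 (-0.69 ± 0.405) and the Smad gene sma-3 (-0.70 ± 0.304) were lowest, neither called. In the insulin receptor pathway 4 of 9 were tested, and age-1, a PI3 kinase subunit (0.75 ± 0.158), was called higher and the kinase gene sgk-1 (-1.68 ± 0.284) lower. daf-18 stood at 0.04 ± 0.325 and ist-1 at -0.06 ± 0.277.

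The p38 pathway had 1 of 10 genes tested, sek-1, at 0.21 ± 0.228 and not called. Of 10 other immune regulators, 1 was called higher, the Toll receptor gene tol-1 (1.11 ± 0.105), and 3 lower, with cebp-1 (-1.10 ± 0.19) and kgb-1 (-0.49 ± 0.141) lowest; irg-1 (0.28 ± 0.438, not called) stood after tol-1. The F test for a ratio that changed between stages called 1 gene each among the intestinal digestive, DBL-1 and other immune lists and 0 among the saposin-like, antimicrobial peptide, transcription factor, p38 and insulin lists.

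The whole-animal lysates hold other tissues too. Of the 6 pharynx markers tested 4 rose from Egg to L1 and 1 fell, of the 4 body wall muscle markers 2 rose, of the 3 neuron markers 1 rose and 1 fell, of the 4 epidermis markers 1 rose and 3 fell, of the 4 germ line markers 2 fell, and of the 2 coelomocyte markers 1 rose. The median difference was 2.55 for intestine, 1.35 for pharynx, 0.79 for body wall muscle, 0.69 for coelomocyte, -0.64 for neuron, -0.81 for germ line and -2.44 for epidermis. The part of tissue growth in the rise of the lysozyme genes was not tested.

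The patterns of the members over the 18 inputs were compared with those of 9598 named genes with a value in every input, as a description. The genes share libraries, and for lys-2, lys-7 and lys-8 the eggs stand apart from the larvae. For lys-1 they do so except from L4 replicate 10. Nearest to lys-1 were clec-63 (r = 0.939), pcp-1 (0.921) and elo-6 (0.914). Nearest to lys-2 were clec-49 (0.983), ctsa-1.2 (0.982) and F54D5.3 (0.98). lys-7 ran with lbp-2 (0.983), spp-3 (0.983) and dod-19 (0.978), and lys-8 with gst-26 (0.973), nspg-7.1 (0.972) and spp-3 (0.971). spp-3 is the saposin-like gene named above, so 1 gene was near both lys-7 and lys-8. Over the 14 larval inputs alone, r of these 4 members with their nearest genes was 0.657 to 0.796.

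For lys-4 the nearest of all 9598 genes was its neighbour lys-5 (r = 0.906), followed by Y75B7AR.1 (0.877) and kat-1 (0.875). lys-5 was nearer to ppw-2 (0.933), C15F1.2 (0.929) and mua-3 (0.927). Among lys-1, lys-2, lys-7 and lys-8 the input levels had r between 0.796 and 0.955, the lowest being lys-1 with lys-7 and the highest lys-7 with lys-8. Over the 14 larval inputs the same pairs had r between -0.153 and 0.495. The IP minus input values of the same genes had r between -0.178 and 0.357, over 17 or 18 lysates.

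By IP minus input over the 18 lysates, the 5 genes nearest to lys-1 among 6618 were nhr-71 (r = 0.824), dnj-13 (0.805), tbca-1 (0.792), tbb-2 (0.786) and D2023.1 (0.765). Their own mean IP minus input was not on 1 side: it was 0.77 for nhr-71, 0.97 for dnj-13, 5.69 for D2023.1, -0.81 for tbca-1 and -0.52 for tbb-2. Without L4 replicate 10 the 5 values of r lay between 0.602 and 0.767. All of these values share the lysates and their dye.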

How the data were processed

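The deposited values are intensities, 1 dye channel of a 2-colour spotted array per sample. RNA was amplified once and labelled with Cy3 or Cy5, per the labels' protocols; scanner, software and scaling are not given in the sources used here. The values show a linear scale with background subtracted and column means of 0.975 to 1.13. Values of 0 or less (5.75% to 20.3% of a column) were set missing, log2 was taken, samples were quantile normalized and probes of a gene averaged (R 4.3.3). Of 23232 spots, 17461 had 1 gene symbol and 5771 none. A gene needed at least 2 lysates per stage with both values. limma 3.58.1 was fitted to IP minus input, paired by lysate, and to the inputs, each with stage and dye, on all 15732 rows, with Benjamini-Hochberg adjusted p under 0.05 called; standard errors of genes with missing values are approximate. IP and input of a lysate deviated together (r 0.287 to 0.621 in 18 of 18). Quantile normalization and amplification can compress or shift differences. The fits were tested on simulated data.

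The members and gene lists were chosen with earlier results of these data known. Named are all members, other lysozyme genes, the 2 highest and 2 lowest of a list by IP minus input, and the genes nearest to a member by Pearson r (5 for the ratio of lys-1, 3 for inputs). Alternatives varied normalization, offset, dim values, probe choice, dye, title spelling, pairing and samples. Figures were drawn with matplotlib.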

Additional observations from a re-analysis of the deposited data

Results flagged for a closer look

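In 53 groups of at least 4 lysates, 5 values of a lysozyme gene stood apart from the rest of their stage. By chance about 1 in 20 of the groups would hold such a value. The groups are not independent, since the IP level, the input level and their difference come from the same lysates. The IP minus input of lys-2 in Egg replicate 4 was -2.60, while the other egg lysates lay between -1.93 and -1.91. The IP level of lys-7 in L1 replicate 2 was -0.116, above the others at -1.24 to -1.17. In L3 replicate 3 the IP level of lys-7 was -3.243, below the others at -0.353 to 0.067, while its input there was 1.62. The input level of lys-7 in L3 replicate 1 was 3.002, above the others at 1.62 to 1.75. The IP level of lys-8 in L3 replicate 2 was -2.528, below the others at -0.969 to -0.789, and its input in that lysate, -0.267, was also the lowest of the stage.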

How the results depend on the processing

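The calls from Egg to L1 held for lys-1 and lys-2 in 31 of 31 settings and for lys-7 and lys-8 in 30 of 30, with differences of 2.63 to 3.69, 2.84 to 3.51, 3.58 to 5.66 and 3.50 to 5.05. The L1 to L2 count of 2 members was 1 with an offset of 0.1 or with title spelling as a block. It was 0 with the values as deposited, with dim values missing (2 members tested), with lysates of 1 title spelling (5 tested), without the lysates with lys-1 at the top of its column, with the IP in Cy3 only (6 tested) or in Cy5 only (4 tested). It was also 0 with a replicate block, where lys-4 differed by 3.55 (limma, adjusted p = 0.367). The settings by dye and without those lysates were chosen after seeing the data. With 1 title spelling L1, and with Cy5 only every stage except L1, is left with 1 lysate assumed to vary like the others. These 2 counts of 0, and the Egg to L1 calls of the same 2 settings, thus say little. Leaving out 1 replicate gave 0 to 2. Same-numbered inputs of different stages deviated with r of -0.238 to 0.477 (median 0.0561, over 0.1 in 7 of 19 pairs). These values do not settle whether replicate numbers link samples across stages. The F count of 6 was 2 with dim values missing or Cy5 only, and 5 to 6 without 1 replicate; the Egg to L1 count of 4 was 2 with dim values missing. The count of changed ratios, 0, was 2 with the offset, both over all stages and from Egg to L1, where lys-8 turned to -1.48 (limma, adjusted p = 0.00875), and 1 from Egg to L1 with Cy5 only, which leaves 1 egg lysate whose lys-8 IP was not above background. The sides of lys-1, lys-2, lys-7 and lys-8 in the IP were kept in every setting that gave them a value (dim values missing gave none for lys-7 and lys-8, the replicate block none for lys-8), with lys-1 between 1.34 and 2.60. The median of all genes was -0.09, 0.135 as deposited and -0.318 with dim values missing. The level of lys-7 was called higher between L1 and L2 with columns centred on their medians (1.63; limma, adjusted p = 0.0333). The causes were not tested. Dim spots limit lys-4, lys-5 and lys-6, and the egg IP of lys-7 and lys-8.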

Other observations

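The genes whose input pattern was nearest to lys-1 were not all on its side in the IP: mean IP minus input was 0.70 for clec-63, 0.80 for elo-6 and -2.10 for pcp-1. Those nearest to lys-2, lys-7 and lys-8 were below 0, from -0.98 for clec-49 to -2.24 for F54D5.3.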
